A study of Mus musculus with 10 samples.

Results

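The genes described here encode 10 transcription factors known for their part in effector differentiation of CD8+ T cells: Tbx21 (T-bet), Eomes, Prdm1 (Blimp-1), Id2, Zeb2, Irf4, Irf8, Batf, Batf3 and Nfil3. They were picked by symbol from 23992 genes measured in 10 poly(A) RNA-seq libraries, and each gene was represented by its most-read RefSeq transcript. The cells were CD8+ T cells from the spleen of C57BL/6N mice. Every group had been activated for 48 h on plate-bound anti-CD3 (2 µg/ml) with soluble anti-CD28 (2 µg/ml), then pooled, washed and replated, by default for another 48 h. The 5 groups, each with 2 libraries, were no cytokine, human IL-2 (100 IU/ml), mouse IL-21 (100 ng/ml), IL-2 with LDHi and IL-21 with LDHi. LDHi is NCI-737, an inhibitor of lactate dehydrogenase, used at 1 µM; it was present from activation onwards and added again with the cytokine. Since LDHi groups had it in both phases, an action of LDHi during activation and one during cytokine culture cannot be told apart. No group received LDHi without a cytokine. An action of LDHi that needs no cytokine thus cannot be told apart from one on the response to the cytokine. The labels do not say whether replicates came from separate mice or cultures, so the spread between the libraries of a group could be technical. The p values rest on that spread, estimated over all 10 libraries with information shared across genes, not on the groups compared alone.

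As background, T-bet and Eomes are related T-box factors that activate cytotoxic genes such as those for granzymes and interferon-γ. Blimp-1 and Zeb2 repress genes of the naive and memory states, and Id2 blocks the DNA binding of E proteins. Irf4 and Irf8 are interferon regulatory factors, and Batf and Batf3 are AP-1 family proteins that bind DNA together with Jun proteins and IRF4 or IRF8. Nfil3 is a basic leucine zipper repressor. IL-2 is known to act mainly through STAT5, and IL-21 mainly through STAT3.

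The authors' library totals were 45138204 to 62848913 reads, and 27137191 to 46656183 reads per library fell on the transcripts used. IL-21 replicate 2 stood apart, with 59.9% of its total on these transcripts against 69.1 to 79.4% in the other libraries. The IL-21 replicates also differed most from each other, with an SD of 0.76 for the log2 difference over genes, against 0.30 to 0.49 in the other groups. The summed level of 10 CD8 T cell markers was 1558 to 2284 RPKM in every library. Markers of other cells were also present and differed by group. Those of macrophages and monocytes summed to 140 to 184 RPKM without cytokine, 45.9 to 51.7 with IL-21 and 8.39 to 20.5 in the other groups. Those of basophils and mast cells summed to 322 to 671, 105 to 134 and 1.02 to 4.47 RPKM in the same order. In bulk RNA, fewer cells of a type and less RNA per cell cannot be told apart.

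To show the DNA next to members that were higher with IL-2, the 250 bases before the RefSeq start (GRCm38.p6, which is mm10) are printed for Prdm1, Irf4 and Irf8, whose windows hold at most a few bases of annotated exon. Capitals mark matches, on either strand, to a STAT motif (TTCNNNGAA) or an AP-1 motif (TGANTCA). These 3 windows were also searched for an IRF motif and held none, and neither did those of the other members except Eomes.
Prdm1, chr10:44458749-44458998, minus strand: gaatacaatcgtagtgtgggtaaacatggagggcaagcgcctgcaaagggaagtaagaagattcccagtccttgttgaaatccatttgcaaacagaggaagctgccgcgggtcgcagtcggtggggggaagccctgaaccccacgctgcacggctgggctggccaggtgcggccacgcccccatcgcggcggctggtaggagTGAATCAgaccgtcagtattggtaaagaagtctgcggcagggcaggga
Irf4, chr13:30748983-30749232, plus strand: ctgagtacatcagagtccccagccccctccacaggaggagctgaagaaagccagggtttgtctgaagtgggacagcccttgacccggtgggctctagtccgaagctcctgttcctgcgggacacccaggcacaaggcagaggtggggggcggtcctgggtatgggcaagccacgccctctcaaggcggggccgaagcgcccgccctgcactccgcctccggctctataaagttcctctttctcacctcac
Irf8, chr8:120736108-120736357, plus strand: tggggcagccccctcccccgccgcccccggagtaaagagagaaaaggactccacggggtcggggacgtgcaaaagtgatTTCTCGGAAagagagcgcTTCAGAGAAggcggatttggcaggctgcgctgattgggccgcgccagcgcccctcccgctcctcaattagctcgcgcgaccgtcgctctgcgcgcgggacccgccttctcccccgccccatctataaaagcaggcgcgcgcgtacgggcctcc
The Prdm1 window held an AP-1 match, TGAATCA, 48 to 42 bases before the start. The Irf8 window held a pair of STAT matches, TTCTCGGAA at 171 to 163 and TTCAGAGAA at 153 to 145 bases before the start. The Irf4 window held no match to these letters. The Batf3 window held the STAT match TTCCACGAA, 239 to 231 bases before the start. Among 32851 mouse promoters of this length, 7.02% held the STAT motif, 6.75% the AP-1 motif and 2.98% the IRF motif. Among the 14 promoters listed for the members, 4, 2 and 1 did, those with the STAT motif belonging to 3 members. Zeb2, which was lower with IL-2, also held matches: TTCTGTGAA in a pair of overlapping windows that share it, and the AP-1 matches TGAGTCA and TGACTCA in another window. A match is a description of the letters, not a measured site.

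Levels are given first, in RPKM (reads scaled to transcript length and library total), replicate 1 before replicate 2. Tbx21 (mm10 chr11:97098071-97115331) was at 12.4 and 7.75 RPKM without cytokine, 12.8 and 14.1 with IL-2, 8.78 and 9.40 with IL-2 and LDHi, 19.0 and 13.3 with IL-21, and 0.87 and 1.35 with IL-21 and LDHi. The last group was far below every other, and the IL-21 and IL-2 groups overlapped. Eomes (chr9:118478212-118486132) was at 22.9 and 17.7, 20.7 and 18.9, 29.3 and 31.0, 15.9 and 15.3, and 10.95 and 10.8 RPKM in the same order of groups. It was thus highest with IL-2 and LDHi and lowest with IL-21 and LDHi, and only the groups without cytokine and with IL-2 overlapped among neighbours in level. An antisense gene, Gm33460, overlaps 118 exonic bases of Eomes; the sources used here give no strand setting for the counting, so reads of such partners cannot be told apart.

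Prdm1 (chr10:44437177-44528501) was at 0.98 and 0.88 RPKM without cytokine, 3.76 and 2.95 with IL-2, 1.14 and 1.03 with IL-2 and LDHi, 1.496 and 1.14 with IL-21, and 0.23 and 0.20 with IL-21 and LDHi. The IL-2 libraries were above all others. Zeb2 (chr2:44983632-45117395) was at 3.04 and 5.86, 1.11 and 1.45, 0.74 and 0.70, 2.06 and 3.84, and 0.34 and 0.30 RPKM in that order. Its highest groups, no cytokine and IL-21, overlapped and had the widest spread between replicates. Zeb2os, on the opposite strand, overlaps 653 exonic bases of Zeb2. Id2 (chr12:25093799-25097140), the most abundant member in every group, was at 50.4 and 45.1, 63.8 and 42.1, 94.8 and 75.9, 205.9 and 169, and 107 and 72.1 RPKM. The IL-21 libraries were above all others, the LDHi groups overlapped each other, and the IL-2 and no cytokine groups overlapped.

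Irf4 (chr13:30749226-30766976) was at 5.24 and 4.11 RPKM without cytokine, 32.4 and 32.0 with IL-2, 4.28 and 4.03 with IL-2 and LDHi, 5.95 and 5.51 with IL-21, and 0.55 and 0.36 with IL-21 and LDHi. Irf8 (chr8:120736358-120756694) was at 7.27 and 4.87, 26.4 and 28.8, 7.86 and 8.25, 8.24 and 6.34, and 1.46 and 0.68 RPKM in the same order. Both were highest with IL-2 and lowest with IL-21 and LDHi, with no overlap of those groups with any other. Batf (chr12:85686669-85709087) varied least, with a highest group mean 1.86 times the lowest, and its libraries lay between 12.95 RPKM, in both libraries with IL-2 and LDHi, and 29.4 RPKM, in IL-21 replicate 1. Batf3 (chr1:191097847-191108945) varied most, at 7.20 and 3.58, 15.8 and 18.4, 0.223 and 0.292, 2.246 and 1.46, and 0.0572 and 0.0560 RPKM in the order given for Irf4. No 2 groups overlapped for Batf3, and the lowest level rested on 2 reads in each library with IL-21 and LDHi. Nfil3 (chr13:52967209-52981073) was at 2.12 and 2.18, 34.7 and 29.7, 2.89 and 3.13, 3.43 and 2.19, and 0.57 and 0.61 RPKM. As for Irf4, its IL-2 libraries stood above and its IL-21 and LDHi libraries below all others. The group with IL-21 and LDHi had the lowest mean for 8 of the 10 members, Id2 and Batf being the exceptions. The share of all genes with their lowest mean in that group was not computed, so this count is not read as particular to the members.

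**Figure D1:**
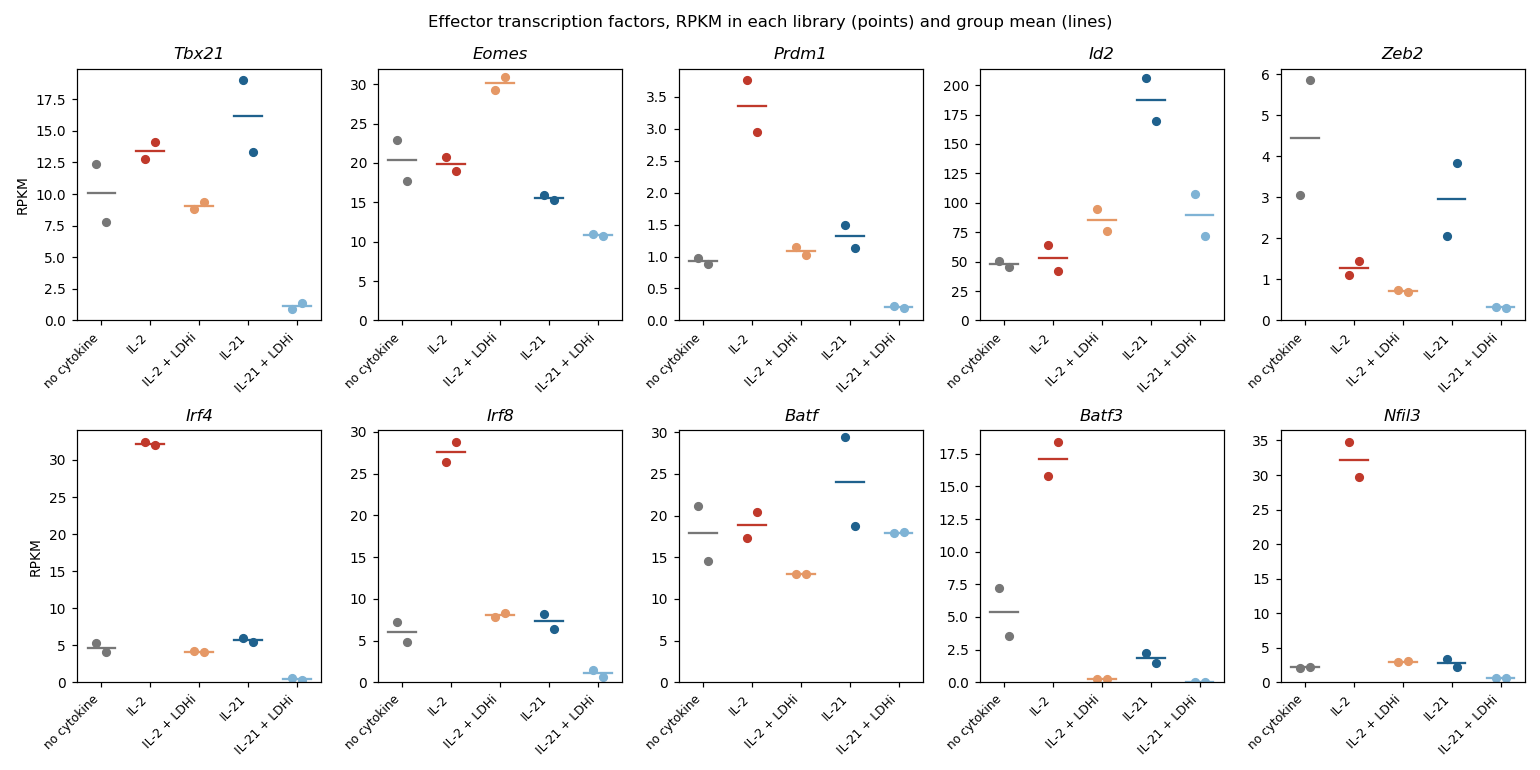
RPKM of the 10 members in each library, by group, with a linear axis of its own for each gene; points are libraries and lines group means. Irf4, Irf8, Batf3, Prdm1 and Nfil3 are highest with IL-2, and 8 of 10 members have their lowest mean with IL-21 and LDHi. The share of all genes lowest in that group was not computed.

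Differences were tested with edgeR's quasi-likelihood test over 14357 genes and called at a Benjamini-Hochberg adjusted p below 0.05; all 10 members passed the filter on low counts. With IL-2, against no cytokine, 5 members were called higher and 1 lower, where 50.5% of all genes were called, 25.6% higher and 24.8% lower. Nfil3 rose by 3.89 ± 0.17 on the log2 scale (SE, n = 2 in each group; edgeR adjusted p = 2.55e-06), Irf4 by 2.77 ± 0.19 and Irf8 by 2.17 ± 0.29. Prdm1 rose by 1.83 ± 0.18 and Batf3 by 1.64 ± 0.30. Zeb2 fell by 1.82 ± 0.40 (edgeR adjusted p = 0.00487), a call that ended without IL-2 replicate 1 (edgeR adjusted p = 0.0504). Tbx21 (0.40 ± 0.23), Id2 (0.13 ± 0.24), Batf (0.06 ± 0.19) and Eomes (-0.05 ± 0.14) did not pass; Tbx21 passed without replicate 1 of no cytokine (edgeR adjusted p = 0.0296). The median log2 change was 1.02 over the members and -0.03 over all genes.

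Among lists of genes tied to these factors, 7 of 8 IRF4 and BATF targets were higher with IL-2 and 1 lower, with a median log2 change of 1.86. They included the glycolytic enzymes Pkm (2.44 ± 0.12) and Hk2 (2.81 ± 0.31) and the glucose transporter Slc2a1 (2.09 ± 0.25), while Foxo1, a factor of quiescent cells, fell by 0.86 ± 0.11. Of 11 factors of the naive and memory states 9 were lower and 1 higher, among them Myb (-2.31 ± 0.17), Klf2 (-2.41 ± 0.22), Tcf7 (-1.38 ± 0.16) and Lef1 (-1.32 ± 0.16). The 15 T-bet and Eomes targets split, 6 higher and 7 lower. Gzmb, which encodes granzyme B, rose by 5.92 ± 0.29, and the chemokine receptor gene Cx3cr1 fell by 3.97 ± 0.42. Of 12 genes repressed by Blimp-1, 4 were higher and 7 lower. Il2ra, the high-affinity IL-2 receptor chain, rose by 4.65 ± 0.37, and S1pr1, needed for exit from lymphoid organs, fell by 1.92 ± 0.19. Among the 13 AP-1 and E protein partners 7 were higher and 2 lower, with Fosl2 at 3.18 ± 0.20 and Jun at 1.82 ± 0.15.

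With IL-21, against no cytokine, 2 members were called, where 11.5% of all genes were, 5.65% higher and 5.9% lower. Id2 rose by 2.13 ± 0.24 (edgeR adjusted p = 0.00118), and Batf3 fell by 1.40 ± 0.32 (edgeR adjusted p = 0.0245). The Batf3 call ended without replicate 1 of no cytokine (log2 change -0.82, edgeR adjusted p = 0.0939) and when 1 of the IL-2 libraries, which share the estimate of spread, was left out. Tbx21 (0.82 ± 0.23, edgeR adjusted p = 0.0518) and Prdm1 (0.65 ± 0.18, edgeR adjusted p = 0.0504) just missed the threshold. Without IL-21 replicate 2, 7 members were called, with Tbx21, Prdm1, Batf and Nfil3 higher and Zeb2 lower in addition, and 16.0% of all genes were called in that fit. Leaving out 1 IL-2 library, whichever it was, left 1 member and 7.28% or 7.12% of all genes called. The share of all genes called was unstable in this comparison, from 5.01% without no cytokine replicate 2 to 26.7% without IL-21 replicate 1, and 0.731% when only the groups compared were fitted. The median log2 change was 0.49 over the members and -0.01 over all genes.

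Of the 15 T-bet and Eomes targets 9 were higher with IL-21 and none lower, with a median log2 change of 1.32. Gzmb rose by 5.43 ± 0.28, Ifng by 4.33 ± 0.27 and Prf1, which encodes perforin, by 1.64 ± 0.11. Of 18 upstream receptors and regulators 5 were higher and 1 lower, including Il21r (1.57 ± 0.13) and Stat3 (0.67 ± 0.12). Jun (3.38 ± 0.16) and Junb (1.71 ± 0.18) were among 6 of 13 AP-1 and E protein partners that rose, and none fell. Id3, the relative of Id2 that marks memory precursors, fell by 2.51 ± 0.34. Bcl6, a repressor that opposes Blimp-1, rose by 1.29 ± 0.13.

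IL-21 and IL-2 were then compared directly, and 8 of 10 members were called, 3 higher with IL-21 and 5 lower, where 49.6% of all genes were called, 24.9% higher and 24.7% lower. Nfil3 (-3.36 ± 0.16), Batf3 (-3.04 ± 0.33), Irf4 (-2.31 ± 0.18), Irf8 (-1.75 ± 0.28) and Prdm1 (-1.18 ± 0.18) were lower with IL-21. Id2 was higher by 1.99 ± 0.24 (edgeR adjusted p = 0.000242). Zeb2 was higher by 1.43 ± 0.40 and Batf by 0.51 ± 0.19, and both calls were fragile. That of Zeb2 ended when any 1 of the IL-2 libraries or IL-21 replicate 2 was left out (log2 change 0.72 without the latter), and that of Batf ended in 7 of the 10 fits that left out 1 library. Tbx21 (0.43 ± 0.23) and Eomes (-0.16 ± 0.14) did not pass. Of the T-bet and Eomes targets 8 of 15 were higher and 3 lower with IL-21, with Gzma at 5.83 ± 0.45, Ccl4 at 4.05 ± 0.38 and Ifng at 2.67 ± 0.24. Of the IRF4 and BATF targets 6 of 8 were lower and 2 higher, with Hk2 at -2.91 ± 0.31 and Ctla4 at -2.51 ± 0.22. Of the naive and memory factors 7 of 11 were higher and 1 lower, with Bcl6 at 1.87 ± 0.13 and Tcf7 at 1.71 ± 0.16.

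**Figure D2:**
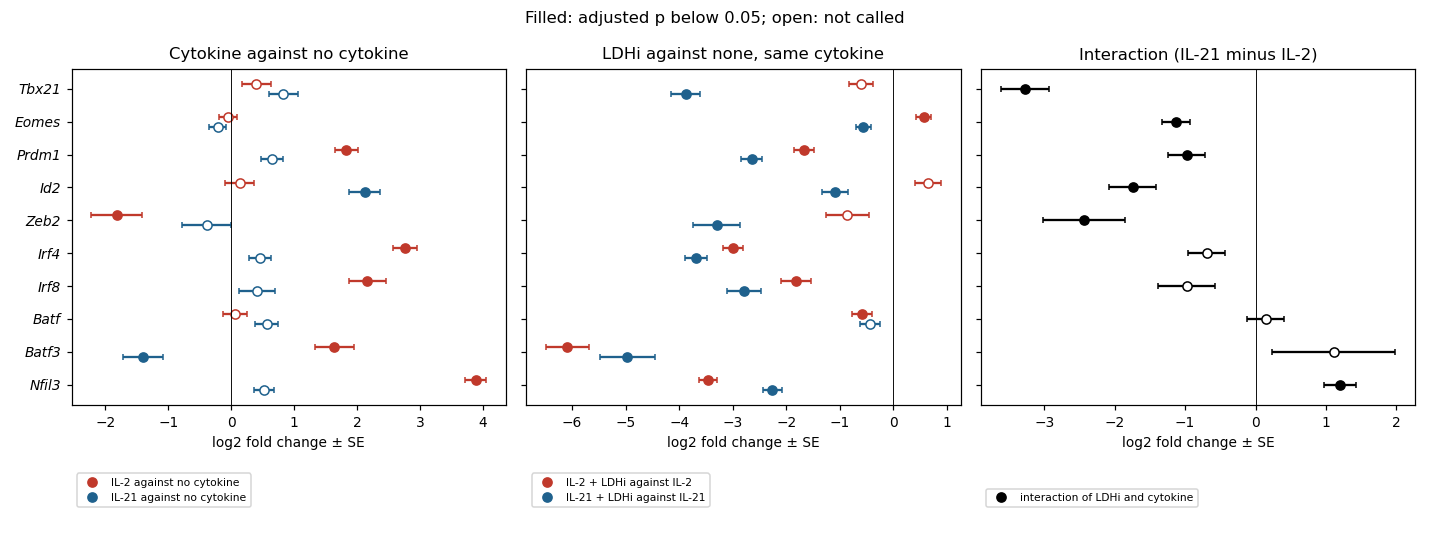
Log2 fold changes of the 10 members for each cytokine against no cytokine (left), LDHi against its cytokine alone (middle) and the interaction (right), with bars of 1 SE and filled points where the edgeR adjusted p was below 0.05. Irf4, Irf8, Prdm1, Batf3 and Nfil3 are above 0 for IL-2 and below 0 for LDHi under both cytokines.

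LDHi with IL-2 was compared with IL-2 alone. Of the 10 members 6 were lower and 1 higher, where 39.4% of all genes were called, 21.6% lower and 17.8% higher. Batf3 fell by 6.09 ± 0.40 on the log2 scale (edgeR adjusted p = 1.76e-05), from 1281 to 20 reads over 2 libraries each. Scaled to the reads on the transcripts used, as for the other counting ratios here, the ratio was 64.1. Its 95% counting interval was 41.3 to 105. Nfil3 fell by 3.46 ± 0.16, Irf4 by 2.99 ± 0.19, Irf8 by 1.82 ± 0.28 and Prdm1 by 1.67 ± 0.18. These are the 5 genes that were higher with IL-2 than without cytokine; the comparisons share the IL-2 libraries. Eomes rose by 0.56 ± 0.14 (edgeR adjusted p = 0.0115) and Batf fell by 0.58 ± 0.19 (edgeR adjusted p = 0.0365). The Eomes call ended without IL-2 replicate 2 or either library with IL-2 and LDHi, and the Batf call ended in 6 of 10 such fits. Tbx21 (-0.60 ± 0.23), Id2 (0.65 ± 0.24) and Zeb2 (-0.87 ± 0.40) did not pass. When only the groups compared were fitted, Tbx21 and Zeb2 passed (edgeR adjusted p = 3.17e-05 and 0.000132). In fits without 1 library, Id2 passed in 5 of 10, Tbx21 in 4 and Zeb2 in 2, those without an IL-21 library. The median log2 change was -1.27 over the members and 0.01 over all genes.

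Of the 8 IRF4 and BATF targets 7 were lower and 1 higher with LDHi and IL-2, with a median of -2.34. Ctla4 (-3.73 ± 0.23), the glucose transporter gene Slc2a3 (-2.56 ± 0.24) and Hif1a (-2.13 ± 0.16), whose product drives glycolytic genes, were among them. Of the AP-1 and E protein partners 7 of 13 were lower and 1 higher, with Fos at -2.28 ± 0.26 and Fosl2 at -1.94 ± 0.19. The T-bet and Eomes targets split into 3 higher and 4 lower of 15. Il12rb2, a chain of the IL-12 receptor, fell by 4.40 ± 0.25 and Gzmb fell by 3.67 ± 0.26, while Prf1 rose by 0.74 ± 0.11. Of 12 genes repressed by Blimp-1, 4 were higher and 5 lower. Klf2 rose by 2.66 ± 0.23 and S1pr1 by 1.66 ± 0.19, while Bcl6 fell by 1.07 ± 0.13, and Fos, given above, is on this list too.

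LDHi with IL-21 was compared with IL-21 alone, and 9 of 10 members were lower, where 31.4% of all genes were called, 20.3% lower and 11.1% higher. Batf3 fell by 4.97 ± 0.51, from 132 to 4 reads over 2 libraries each, a ratio of 34.1 with a 95% counting interval of 13.02 to 127. Tbx21 fell by 3.88 ± 0.27 (edgeR adjusted p = 9.6e-06), Irf4 by 3.68 ± 0.21, Zeb2 by 3.30 ± 0.44 and Irf8 by 2.79 ± 0.31. Prdm1 fell by 2.65 ± 0.20 and Nfil3 by 2.26 ± 0.17. Id2 fell by 1.09 ± 0.24 (edgeR adjusted p = 0.00789) and Eomes by 0.56 ± 0.14 (edgeR adjusted p = 0.0146). The Id2 call ended without replicate 2 of IL-21 and LDHi, and the Eomes call without either library of that group. Batf (-0.44 ± 0.19, edgeR adjusted p = 0.109) passed without IL-21 replicate 2. The median log2 change was -2.72 over the members and -0.03 over all genes.

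Of the 15 T-bet and Eomes targets 12 were lower and none higher with LDHi and IL-21, with a median of -3.96. They included Gzmb (-8.51 ± 0.33), Ifng (-5.82 ± 0.30), Il12rb2 (-4.46 ± 0.25) and the chemokine receptor gene Cxcr3 (-3.87 ± 0.29). Of the IRF4 and BATF targets 6 of 8 were lower, with Ctla4 at -5.11 ± 0.26 and Hk2 at -2.69 ± 0.33. Of 12 genes repressed by Blimp-1, 2 were higher and 5 lower. The lymph node homing receptor gene Ccr7 rose by 1.63 ± 0.22, and Pdcd1, which encodes PD-1, fell by 3.82 ± 0.28. Of the naive and memory factors 1 of 11 was higher and 2 lower, Klf2 at 1.20 ± 0.21, Myb at -3.49 ± 0.19 and Satb1 at -0.49 ± 0.11.

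The groups with LDHi were also compared with each other. With IL-21, 6 members were lower than with IL-2 and 1 was higher, where 26.1% of all genes were called, 16.7% lower and 9.39% higher. Irf4 (-3.00 ± 0.20), Tbx21 (-2.85 ± 0.26), Irf8 (-2.73 ± 0.31), Prdm1 (-2.16 ± 0.20), Nfil3 (-2.16 ± 0.17) and Eomes (-1.29 ± 0.14) were lower. Batf was higher by 0.65 ± 0.19, a call that ended in 6 of 10 fits without 1 library. Batf3 (-1.93 ± 0.65), with 20 against 4 reads, had a ratio of 4.16 with a 95% counting interval of 1.39 to 16.7 and did not pass (edgeR adjusted p = 0.0562). It passed under 5 alternatives (edgeR adjusted p from 0.0217 to 0.0422), among them the fits without 1 of the no cytokine libraries. Zeb2 (-0.9997 ± 0.42, edgeR adjusted p = 0.115) did not pass, but did with only the groups compared (edgeR adjusted p = 0.000316), with DESeq2 and without 1 of the IL-21 libraries. Id2 (0.25 ± 0.24) did not pass. Of the T-bet and Eomes targets 10 of 15 were lower and 1 higher, with Fasl at -4.94 ± 0.33 and Prf1 at 1.43 ± 0.11. Of the naive and memory factors 4 of 11 were higher and 2 lower, with Bcl6 at 2.59 ± 0.14 and Myb at -2.88 ± 0.18. Of the AP-1 and E protein partners 3 of 13 were higher and 4 lower, with Jun at 2.99 ± 0.16 and Fosb at -2.51 ± 0.33.

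Whether the effect of LDHi differed between the cytokines was tested as an interaction, the log2 change with LDHi under IL-21 minus that under IL-2. Of the 10 members 5 were called lower and 1 higher, where 21.8% of all genes were called, 13.8% lower and 7.98% higher. The difference was -3.28 ± 0.34 for Tbx21 (edgeR adjusted p = 0.000284), -2.43 ± 0.58 for Zeb2, -1.74 ± 0.34 for Id2, -1.13 ± 0.20 for Eomes and -0.98 ± 0.26 for Prdm1. For Nfil3 it was 1.20 ± 0.23 (edgeR adjusted p = 0.00623), its fall being larger under IL-2. The calls of Prdm1 and Zeb2 ended in 5 and 4 of 10 fits without 1 library. On the log2(RPKM + 1) scale the values were 0.13 for Prdm1 and -1.14 for Zeb2, and neither was called. The Prdm1 call also ended with a minimum of 1.5-fold, and that of Zeb2 with no filter on low counts (edgeR adjusted p = 0.0571). Irf4 (-0.69 ± 0.26), Irf8 (-0.98 ± 0.41), Batf3 (1.11 ± 0.87) and Batf (0.14 ± 0.27) did not pass. Without replicate 1 of IL-21 and LDHi, Irf8 (-1.63) and Irf4 (-1.04) passed, and on the log2(RPKM + 1) scale Batf3 (2.42) did. The 95% interval of the edgeR value for Batf3 ran from -0.60 to 2.82. On the log2(RPKM + 1) scale, differences between levels below 1 RPKM are compressed. Batf3 was at 0.06 to 0.29 RPKM in the LDHi groups, so its 2.42 on that scale largely reflects the levels without LDHi. Prdm1 and Irf4 were also below 1 RPKM with IL-21 and LDHi. Of the T-bet and Eomes targets 13 of 15 were lower and none higher, with Ifng at -5.92 ± 0.38 and Gzma at -6.48 ± 0.58.

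Ratios of RPKM within a library set related factors side by side, given as means ± SD over 2 libraries with no test. Tbx21 over Eomes was 0.489 ± 0.0724 without cytokine, 0.680 ± 0.0918 with IL-2 and 1.03 ± 0.229 with IL-21. With LDHi it was 0.302 ± 0.00249 under IL-2 and 0.103 ± 0.0326 under IL-21, below the other groups. Batf over Batf3 was 1.10 ± 0.0110 with IL-2 and 12.99 ± 0.127 with IL-21. With LDHi it was 51.2 ± 9.58 and 317 ± 6.40, the last over 2 reads of Batf3 in each library. Prdm1 over Bcl6 was 0.817 ± 0.167 with IL-2, 0.0997 ± 0.0204 with IL-21 and 0.0198 ± 0.00207 with IL-21 and LDHi. Id2 over Id3 was 1.77 ± 0.432 without cytokine, 5.004 ± 1.86 with IL-2 and 48.4 ± 23.8 with IL-21. Irf4 over Irf8 moved less, from 0.454 ± 0.106 with IL-21 and LDHi to 1.17 ± 0.0791 with IL-2.

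**Figure D3:**
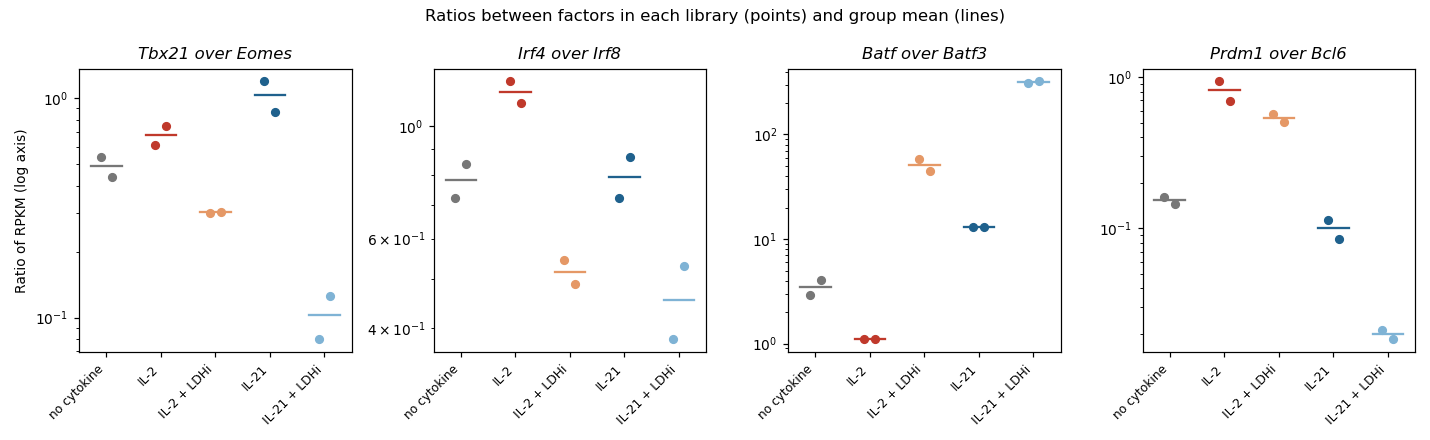
Ratios of RPKM for 4 pairs of factors in each library (log axes), by group; points are libraries and lines group means. Tbx21 over Eomes is lowest and Batf over Batf3 highest in the groups with LDHi.

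Zeb2 moved with markers of other cells. It was highest without cytokine and with IL-21, the groups with the highest macrophage, basophil and neutrophil sums, and their part in its level was not tested. Between the IL-2 groups the lists differed. With LDHi, Zeb2 was at 0.70 to 0.74 RPKM against 1.11 to 1.45 without it. The basophil and mast cell sum was lower too, at 1.65 to 1.72 against 3.93 to 4.47 RPKM, while the macrophage sum was higher, at 14.6 to 20.5 against 11.03 to 13.5 RPKM. The neutrophil sum was 32.1 to 47.0 RPKM without cytokine, 11.3 to 20.5 with IL-21 and at most 0.283 elsewhere. Dendritic cells also express Irf8 and Batf3. Their 9 markers summed to 13.8 to 15.2 RPKM without cytokine, 1.34 to 1.37 with IL-2, 6.73 to 7.001 with IL-2 and LDHi, 13.1 to 14.9 with IL-21, and 0.878 to 0.935 with IL-21 and LDHi. The sum was thus low with IL-2, where Irf8 and Batf3 were highest, and lowest with IL-21 and LDHi, where both genes were lowest, and its part in their levels was not tested. Natural killer cells express Tbx21, Eomes and Id2. The sum of their 6 markers was 47.3 to 75.5 RPKM without cytokine, but mostly from Tyrobp (23.4 and 31.4 RPKM) and Fcer1g (21.2 and 42.4 RPKM), which macrophages and basophils also express. The receptor gene Ncr1 was at 0.073 and 0.242 RPKM there, 0.124 and 0.062 with IL-2, 4.34 and 3.90 with IL-2 and LDHi, 0.116 and 0.121 with IL-21, and 0.042 and 0.082 with IL-21 and LDHi. Klrb1c was likewise highest with IL-2 and LDHi, at 4.53 and 4.19 RPKM, against 0.235 to 0.908 RPKM in the other libraries. Eomes was also highest in that group. The sum of the 6 markers was 6.49 to 9.19 RPKM with IL-2 and 29.1 to 29.3 with IL-2 and LDHi. With IL-21, where Eomes was lower, the sum was 25.1 to 32.7 RPKM. With IL-21 and LDHi it was 3.61 to 4.19 RPKM, and there Tbx21, Eomes and Id2 were also lower than with IL-21. The part of these cells in the levels of Tbx21, Eomes and Id2 was not tested. The sum of CD4 and regulatory T cell markers was 12.2 to 12.9 RPKM with IL-2 against 4.10 to 4.66 without cytokine, and 0.852 to 1.30 with IL-21 and LDHi against 3.32 to 3.82 with IL-21, the directions of Irf4, Prdm1 and Nfil3. With IL-2 and LDHi the sum was 11.8 to 12.6 RPKM, near that with IL-2 alone, while those genes were lower with LDHi. The markers in this sum moved apart, however. Zbtb7b was at 9.28 and 8.82 RPKM with IL-2 and at 3.74 and 3.62 with IL-2 and LDHi. Foxp3 was at 0.49 and 1.23 against 4.10 and 4.10 RPKM, and Cd40lg at 2.06 and 1.62 against 4.09 and 3.77. Cd4 itself was at 1.05 and 0.57 against 0.63 and 0.34 RPKM. The part of such cells in the levels of Irf4, Prdm1 and Nfil3 was not tested. B cell markers summed to 5.95 to 23.0 RPKM over all libraries and differed between replicates in some groups. Replicates 1 and 2 were at 21.6 and 9.23 RPKM without cytokine, 22.98 and 5.95 with IL-21, and 20.5 and 6.62 with IL-21 and LDHi. The sum was 9.33 to 10.4 RPKM with IL-2 and 8.55 to 9.65 with IL-2 and LDHi. Irf4 and Irf8 were also higher in replicate 1 than in replicate 2 without cytokine, with IL-21, and with IL-21 and LDHi. The part of B cells in their levels was not tested.

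**Figure D4:**
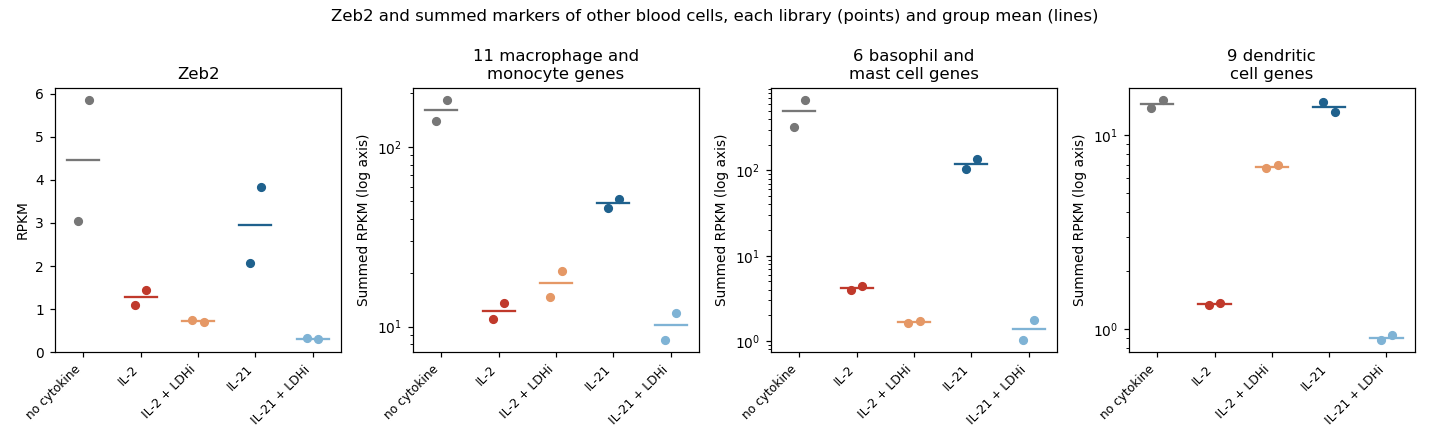
By group, RPKM of Zeb2 (linear axis) and the summed RPKM of 11 macrophage and monocyte, 6 basophil and mast cell, and 9 dendritic cell genes (log axes); points are libraries and lines group means. The libraries without cytokine and with IL-21 are the highest in each panel.

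The genes whose log2 level was most like that of a member over the 10 libraries are given as a description; the points share their libraries and depth. For Tbx21 they were Myo1f, Lrrfip1 and Klrk1, with Pearson's r of 0.986, 0.986 and 0.983. For Irf4 they were Zbtb32 (0.990), Ybx3 (0.989) and Tnfrsf9 (0.987), and for Nfil3 Aars (0.992), Pfkp (0.990) and Gapdh (0.987). For Zeb2 they were Plek (0.992), Vcl (0.989) and Lamp1 (0.979).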

How the data were processed

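Poly(A) RNA from 10 libraries was sequenced on a HiSeq3000 after Kapa mRNA HyperPrep preparation, per the labels' protocols. The deposited tables hold read counts per RefSeq transcript and RPKM that the authors computed from them. The submitters' processing notes name TopHat2 2.2.1, Bowtie2 2.2.6, SAMtools 0.1.8, bedtools 2.25.0, edgeR and mm10; no strand setting is stated in what was used here. Of 31682 transcripts, the one with the most reads was kept for each of 23992 symbols.

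The test on these counts was edgeR 4.0.16 (R 4.3.3; filterByExpr with a minimum count of 10, TMM, robust quasi-likelihood fit over 10 libraries, 14357 genes, common biological coefficient of variation 0.171). The 7 comparisons were two-sided, with Benjamini-Hochberg adjustment across every gene that passed the filter. SEs come from the log2 change and its F statistic. The procedure was also run on simulated counts, with independent libraries and changes set in few genes of the group with IL-21 and LDHi. That setting differs from these data, where many genes were called, and nothing here rests on it. Counting ratios are read counts scaled to the reads on the transcripts used in each group, not by TMM. Counting intervals are exact binomial (95%) and cover counting error only. Loci are those of GENCODE vM21, and promoters are RefSeq's.

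The members and lists were chosen with earlier results of these data known. Besides the members, up to 4 called genes per list and comparison with the smallest p were eligible to be named, and the 3 nearest patterns of 4 members. The 7 pathway lists hold 79 symbols, 11 of them in more than 1 list. The alternatives were RLE factors, library size alone, no filter, an RPKM filter, a replicate block, a minimum fold of 1.5, the longest transcript, the groups compared alone, leaving out each library, limma 3.58.1 on log2(RPKM + 1) and DESeq2 1.42.0.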

Additional observations from a re-analysis of the deposited data

Results flagged for a closer look

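For 6 members the effect of LDHi under IL-21 differed from that under IL-2 by the edgeR interaction test. In that test 21.8% of all genes were called. The difference in log2 change was -3.28 ± 0.34 for Tbx21 (edgeR adjusted p = 0.000284), -1.13 ± 0.20 for Eomes (edgeR adjusted p = 0.00407) and -0.98 ± 0.26 for Prdm1 (edgeR adjusted p = 0.0279). It was -1.74 ± 0.34 for Id2 (edgeR adjusted p = 0.00638), -2.43 ± 0.58 for Zeb2 (edgeR adjusted p = 0.017) and 1.20 ± 0.23 for Nfil3 (edgeR adjusted p = 0.00623). Prdm1 and Zeb2 lost the call in 5 and 4 of the 10 fits that left out 1 library. On the log2(RPKM + 1) scale, which compresses levels below 1 RPKM, the values were 0.13 for Prdm1 and -1.14 for Zeb2, with no call. Prdm1 also lost the call with a minimum of 1.5-fold, and Zeb2 with no filter on low counts. Eomes and Id2 had fitted changes of opposite sign under the cytokines. Eomes was at 0.56 ± 0.14 under IL-2 and -0.56 ± 0.14 under IL-21, and Id2 at 0.65 ± 0.24, which did not pass, and -1.09 ± 0.24.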

How the results depend on the processing

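Of 45 called member results 34 kept the call in all 10 fits that left out 1 library. Over all alternatives to these 45, 826 of 890 values kept direction and call and 63 were no longer called. The remaining 1, Prdm1 in the interaction, changed sign (0.13 with limma). The longest transcript was the one already used for every member, and the minimum of 1.5-fold reuses the main log2 changes. Agreement in direction under these alternatives was thus close to fixed in advance and adds little to the 826. Uncalled results became called in 48 alternatives, spread over 15 results, most often Id2 with LDHi and IL-2 (8). The number of members called for IL-21 against no cytokine was 2 (11.5% of all genes), but 4 with RLE factors (11.6%), 1 with a minimum of 1.5-fold (2.40%), 1 with only the groups compared (0.731%), 6 with DESeq2 (17.2%) and 1 to 7 without 1 library (5.01 to 26.7%). In the other comparisons, in the order of the text, leaving out 1 library gave shares of all genes of 33.4 to 60.4%, 30.4 to 56.3%, 20.9 to 49.7%, 16.3 to 44.8%, 13.6 to 37.2% and 11.8 to 35.0%. Uncalled values that changed sign, with their range without 1 library, were as follows. For IL-2 against no cytokine, Eomes ran from -0.21 to 0.14 (0.04 without IL-2 replicate 2), and Id2 from -0.21 to 0.43 (-0.0066 with library size alone). In the same comparison Batf ran from -0.17 to 0.34 (-0.077 with library size alone, -0.0081 with the RPKM filter, -0.04 without IL-2 replicate 2). For IL-21 against no cytokine, Zeb2 ran from -1.10 without IL-21 replicate 2 to 0.17 without no cytokine replicate 2 (0.09 without IL-21 replicate 1). Between the LDHi groups Id2 ran from -0.077 to 0.51. In the interaction Batf ran from -0.021 to 0.33, and Irf4 was 0.48 with limma, whose scale compresses levels below 1 RPKM such as Irf4 with IL-21 and LDHi. The causes were not tested. Library size alone moved the median log2 change of all genes by -0.14 for IL-2 against no cytokine, 0.12 for LDHi with IL-2 and -0.14 for the interaction.

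Same-numbered replicates deviated together in 3 of 10 pairs of groups (correlation over 0.1). The correlation was 0.48 between no cytokine and IL-21, and 0.104 and 0.111 in the other pairs over 0.1. The lowest was -0.15, between IL-2 with LDHi and IL-21. The meaning of the replicate numbers is not given, so the main test did not pair the samples. Whether same-numbered libraries of no cytokine and IL-21 share an origin was not tested. With a replicate block the members called were 6, 3, 7, 8, 9, 7 and 6 in the order of the comparisons in the text. The shares of all genes called were 50.3, 11.3, 49.0, 39.1, 30.6, 25.4 and 21.1% in that order. The block added Prdm1 to the members called for IL-21 against no cytokine (edgeR adjusted p = 0.0356). The RPKM filter left out Prdm1 and Zeb2. With 2 libraries a group, small changes are hard to call, and Batf3 with LDHi rests on few reads.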
